A study of Mus musculus with 18 samples.

Results

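The genes described here are 6 genes of neutrophil granules, of their regulation and of neutrophil cytosol: S100a8, S100a9, Camp, Ngp, Cebpe and Mpo. They were selected on measured values, by symbol, from a table of 25926 genes for how they differed among these same samples. The levels and differences of these 6 genes are therefore a description and carry no test. RNA-seq was done on macrophages that were derived from the marrow of C57BL/6J mice (BMDMs), grown for 7 days in 50 ng/mL M-CSF, the growth factor that drives marrow cells to become macrophages. All BMDMs then sat in the upper chamber of a Transwell (pores of 0.4 μm) over renal tubular epithelial cells (TECs) cultured from mouse kidney. In NC the TECs had no crystals and the BMDMs had PBS. In COM the BMDMs also had PBS, above TECs given calcium oxalate monohydrate (COM) crystals at 100 μg/mL for 24 h. In COM+Met the TECs had the same crystals and the BMDMs had 5.0 mM Met for 24 h, an abbreviation that the labels leave unexplained. Each of the 3 groups held 6 samples, and nothing in the sources says that these were separate cultures or mice, so a p-value here covers the spread among the 6 libraries, which may be technical. The C57BL/6J mice were 6 to 8 weeks old when obtained. The question behind the comparisons is how macrophages respond to crystal-exposed tubular cells and how Met alters this.

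Neutrophil granules form in the bone marrow in a fixed order. Primary granules, which hold Mpo (myeloperoxidase) and elastase, are made first. Secondary granules, which hold Camp (the cathelicidin antimicrobial peptide precursor) and Ngp (neutrophilic granule protein, a member of the cystatin superfamily), follow under the transcription factor Cebpe (C/EBP epsilon). S100a8 and S100a9 are calcium-binding proteins that pair as calprotectin, abundant in neutrophil cytosol, which monocytes also make and which binds Toll-like receptor 4 outside cells. Macrophages share the early part of this programme through their common progenitor, and cultures grown from marrow can still hold its transcripts.

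The genes lie as follows on GRCm38 (GENCODE M21). S100a8 (ENSMUSG00000056054) is a protein-coding gene that spans 90668978 to 90670035 of chromosome 3 (plus strand). S100a9 (ENSMUSG00000056071) is on the minus strand of chromosome 3, from 90692632 to 90695721, and the 22596 bases between it and S100a8 hold 0 annotated genes. Camp (ENSMUSG00000038357) is on the minus strand of chromosome 9, from 109847379 to 109849617. Ngp (ENSMUSG00000032484) spans 110419747 to 110423012 of chromosome 9 (plus strand), with 8 protein-coding genes between it and Camp. Cebpe (ENSMUSG00000052435) is on the minus strand of chromosome 14, from 54710360 to 54712174. Mpo (ENSMUSG00000009350) spans 87793581 to 87804413 of chromosome 11 (plus strand) and is the member that overlaps another annotated gene, Gm11505 on the minus strand. Whether the counting used strand is not given in the sources used here, so reads of Mpo and Gm11505 may not have been told apart.

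The promoters of the 2 chromosomal pairs, S100a8 with S100a9 and Camp with Ngp, are shown because the partners in each pair differed in level between groups, as described next. They come from RefSeq (GRCm38.p6), which held a promoter for 5 of the 6 genes and none for Cebpe. Each runs 5′ to 3′ along its gene from 250 bases before the start that RefSeq annotates to 50 after it. These starts differ from the GENCODE gene ends given above for S100a8, Camp and Ngp, and that of S100a9 is the same. Capitals mark the letters TTNNGCAA (the type of site that C/EBP factors bind) and GAGGAAG (the type that PU.1 binds), searched on both strands. These windows are chr3:90668821-90669120 on the plus strand for S100a8, chr3:90695672-90695971 on the minus strand for S100a9, chr9:109849407-109849706 on the minus strand for Camp and chr9:110419558-110419857 on the plus strand for Ngp.
S100a8: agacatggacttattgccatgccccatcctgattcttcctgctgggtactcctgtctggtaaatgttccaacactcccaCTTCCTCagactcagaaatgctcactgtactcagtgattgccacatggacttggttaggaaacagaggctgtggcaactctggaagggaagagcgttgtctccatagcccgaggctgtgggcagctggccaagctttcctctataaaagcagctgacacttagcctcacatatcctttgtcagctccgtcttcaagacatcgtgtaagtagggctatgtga
S100a9: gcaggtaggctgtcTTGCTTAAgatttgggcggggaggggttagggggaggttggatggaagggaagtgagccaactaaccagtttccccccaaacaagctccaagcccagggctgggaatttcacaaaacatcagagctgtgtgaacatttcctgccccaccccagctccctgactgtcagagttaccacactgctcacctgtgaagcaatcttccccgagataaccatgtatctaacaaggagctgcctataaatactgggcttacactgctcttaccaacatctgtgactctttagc
Camp: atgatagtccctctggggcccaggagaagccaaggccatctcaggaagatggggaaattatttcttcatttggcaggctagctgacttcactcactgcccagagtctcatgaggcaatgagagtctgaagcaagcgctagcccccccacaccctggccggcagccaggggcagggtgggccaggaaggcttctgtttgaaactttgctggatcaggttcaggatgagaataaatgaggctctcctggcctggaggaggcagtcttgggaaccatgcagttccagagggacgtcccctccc
Ngp: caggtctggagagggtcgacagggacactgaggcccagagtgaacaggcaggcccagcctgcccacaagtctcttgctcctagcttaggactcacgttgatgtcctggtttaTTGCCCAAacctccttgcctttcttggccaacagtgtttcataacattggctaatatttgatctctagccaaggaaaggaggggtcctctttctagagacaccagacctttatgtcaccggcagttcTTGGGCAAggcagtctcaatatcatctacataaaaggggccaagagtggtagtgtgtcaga
TTNNGCAA was found 1 time in the S100a9 window (first base at -236 from the start), 2 times in the Ngp window (at -138 and -11) and 0 times in the S100a8 and Camp windows. Of the 32851 promoter windows of this length, 10.8% held it. GAGGAAG was found 1 time in the S100a8 window (at -171), and 13.6% of all windows held it. The Mpo window held GAGGAAG 2 times and TTNNGCAA 0 times. A match in letters is a description of the sequence and was not tested as a binding site.

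Levels are given in FPKM, fragments scaled to gene length and to the total of the sample. The read depth is unknown, which leaves the precision of low values unknown as well. Across the 10751 genes that averaged 1 FPKM or more, NC-5 and NC-6 correlated with the other NC samples at 0.938 to 0.962, COM-6 with the other COM samples at 0.888 to 0.935, and COM-4 and COM-5 with COM-1, COM-2 and COM-3 at 0.948 to 0.951. These libraries stood apart from the rest of their groups. The labels give no batch. In bulk RNA, fewer cells of a type and less RNA per cell cannot be told apart.

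The levels of the calprotectin genes parted in COM. S100a8 measured 230 in NC-1, 277 in NC-2, 221 in NC-3, 189 in NC-4, 281 in NC-5 and 324 FPKM in NC-6. In COM it read 298 in the first library, 276 in the second and 301 in the third, then 51.9 in COM-4, 56.4 in COM-5 and 28.4 FPKM in COM-6. COM-1 to COM-3 thus sat inside the NC range, and COM-4 to COM-6 lay below every NC sample. In COM+Met it was 39.6, 15.3, 22.2, 20.7, 23.0 and 20.1 FPKM over samples 1 to 6, all below every NC sample, with COM+Met-1 overlapping the range of COM. The group means were 254 ± 49.1 FPKM in NC, 169 ± 135 in COM and 23.5 ± 8.35 in COM+Met (SD, n = 6). On the scale of log2(FPKM + 1), S100a8 differed by -1.13 (SE 0.56) between COM and NC. Without COM-4, COM-5 and COM-6 this difference was 0.22, the other sign. Between COM+Met and COM it differed by -2.28 (SE 0.58), or by -3.64 without those 3 libraries. These 3 averaged 45.5 FPKM, nearer to COM+Met than COM-1 to COM-3 at 292, so leaving them out enlarges the difference. A fit without COM-1 to COM-3 instead was not run.

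S100a9, which forms the dimer with S100a8, was low in all 6 COM samples. It measured 198, 259, 170 and 161 FPKM in NC-1 to NC-4, 127 in NC-5 and 114 in NC-6. In COM it was 12.2, 17.8 and 14.1 FPKM in COM-1 to COM-3 and 1.34, 2.38 and 2.79 in COM-4 to COM-6, with no overlap with NC. In COM+Met it was 1.01, 2.07, 0.942, 1.60, 1.20 and 1.00 FPKM. The COM+Met range was below COM-1 to COM-3 and overlapped COM-4. The mean was 171 ± 52.7 FPKM in NC, 8.43 ± 7.11 in COM and 1.3 ± 0.446 in COM+Met (SD, n = 6), so that the NC mean was 20.3 times the COM mean and the COM mean 6.46 times the COM+Met mean. The log2 differences were -4.58 (SE 0.50) for COM against NC and -1.61 (SE 0.48) for COM+Met against COM. The second was -2.77 without COM-4, COM-5 and COM-6. These averaged 2.17 FPKM, nearer to COM+Met than COM-1 to COM-3 at 14.7.

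Within a sample, the FPKM of S100a9 was 0.35 to 0.935 of that of S100a8 in NC (median 0.808), 0.0258 to 0.0982 in COM (median 0.0446) and 0.0256 to 0.136 in COM+Met (median 0.051). The ratio in every NC sample lay above that in every COM and COM+Met sample, and the COM and COM+Met ranges overlapped. In NC the ratio was 0.45 in NC-5 and 0.35 in NC-6, against 0.767 to 0.935 in NC-1 to NC-4. S100a8 ranked 214 of 25926 genes by mean FPKM in NC, 349 in COM and 2438 in COM+Met, whereas S100a9 ranked 345, 5533 and 9795.

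**Figure D1:**
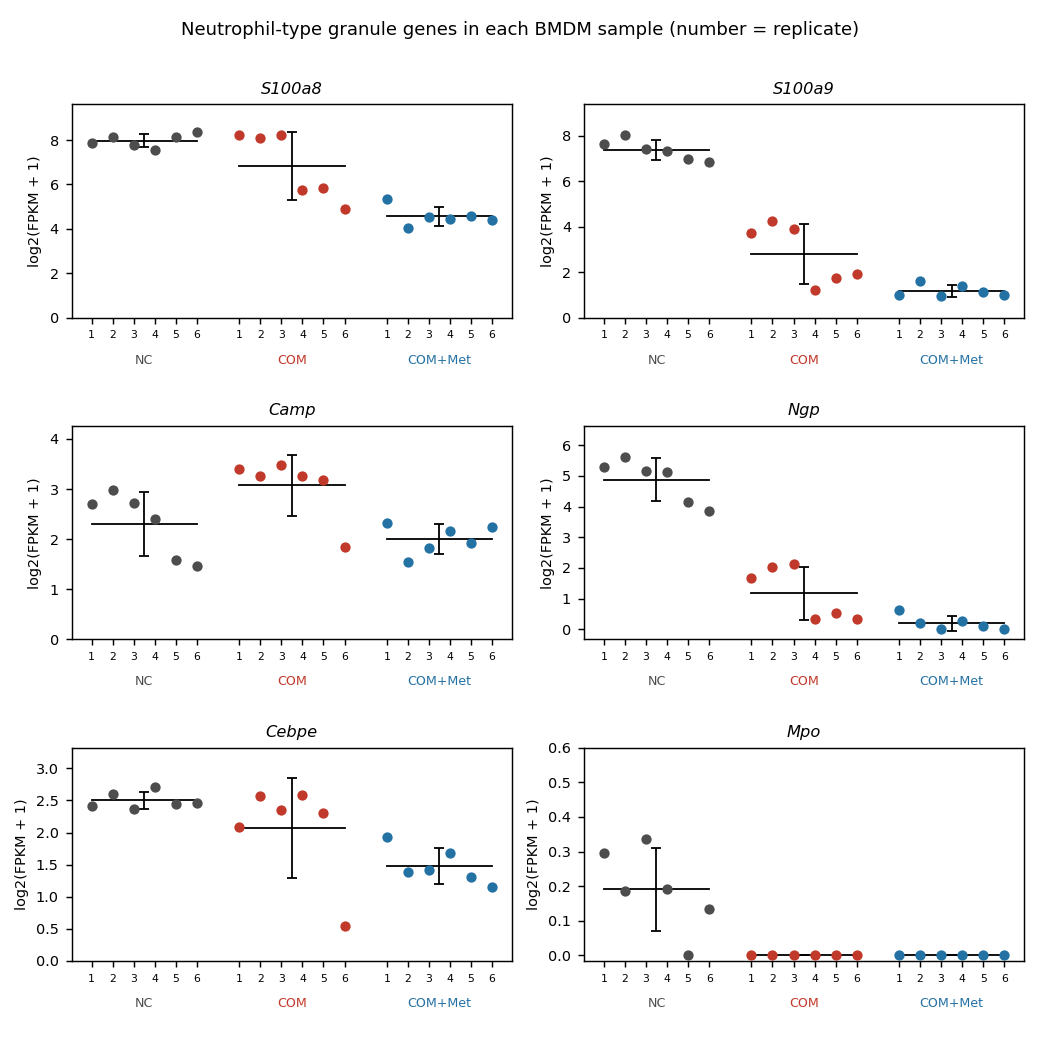
Level of S100a8, S100a9, Camp, Ngp, Cebpe and Mpo as log2(FPKM + 1) in each of the 18 BMDM samples, by group and replicate number. Points are samples, horizontal lines are group means and bars are SD (n = 6). S100a9 and Ngp lie lower in all 6 COM samples than in any NC sample, while S100a8 lies at the NC level in COM-1 to COM-3 and Camp lies above every NC sample in COM-1 to COM-5.

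The secondary granule pair also came apart. Ngp measured 37.9, 48.4, 34.7 and 34.3 FPKM in NC-1 to NC-4 and 16.9 and 13.5 in NC-5 and NC-6. In COM it was 2.17, 3.07 and 3.41 FPKM in COM-1 to COM-3 and 0.265, 0.446 and 0.254 in COM-4 to COM-6. In COM+Met it was 0.552, 0.154, 0.194 and 0.0665 FPKM in samples 1, 2, 4 and 5 and was listed at 0 in samples 3 and 6. The lowest NC value was above the highest COM value, and COM-1 to COM-3 stood above every COM+Met sample. The mean was 30.9 ± 13.3 FPKM in NC and 1.6 ± 1.46 in COM (SD, n = 6), a log2 difference of -3.70 (SE 0.40). Ngp was under 1 FPKM on average over COM and COM+Met together and was not fitted in that comparison. The plain difference in mean log2(FPKM + 1) there was -0.97, or -1.75 without COM-4, COM-5 and COM-6. Those libraries averaged 0.322 FPKM, against 2.88 in COM-1 to COM-3 and 0.161 in COM+Met.

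Camp, whose product is cut to an antimicrobial peptide, had a higher mean in COM than in NC. It measured 5.46, 6.94, 5.55 and 4.30 FPKM in NC-1 to NC-4 and 2.0 and 1.74 in NC-5 and NC-6. In COM it was 9.63, 8.60, 10.2, 8.63 and 8.01 FPKM in COM-1 to COM-5 and 2.57 in COM-6. The first 5 COM samples were above every NC sample, and COM-6 lay inside the NC range. In COM+Met it was 4.0, 1.91, 2.53, 3.49, 2.79 and 3.73 FPKM, all inside the NC range and below COM-1 to COM-5. The mean was 4.33 ± 2.08 FPKM in NC, 7.93 ± 2.74 in COM and 3.08 ± 0.8 in COM+Met (SD, n = 6). The log2 differences were 0.77 (SE 0.32) for COM against NC, -1.07 (SE 0.25) for COM+Met against COM and -0.30 (SE 0.26) for COM+Met against NC.

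The FPKM of Ngp was 6.25 to 8.42 times that of Camp in the NC samples, a narrow range that held NC-5 and NC-6 as well, although both genes were lower there than in NC-1 to NC-4. In COM the ratio was 0.0307 to 0.357 and in COM+Met 0 to 0.138. Ngp thus exceeded Camp in 6 of 6 NC samples and was below it in 6 of 6 COM and 6 of 6 COM+Met samples.

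**Figure D2:**
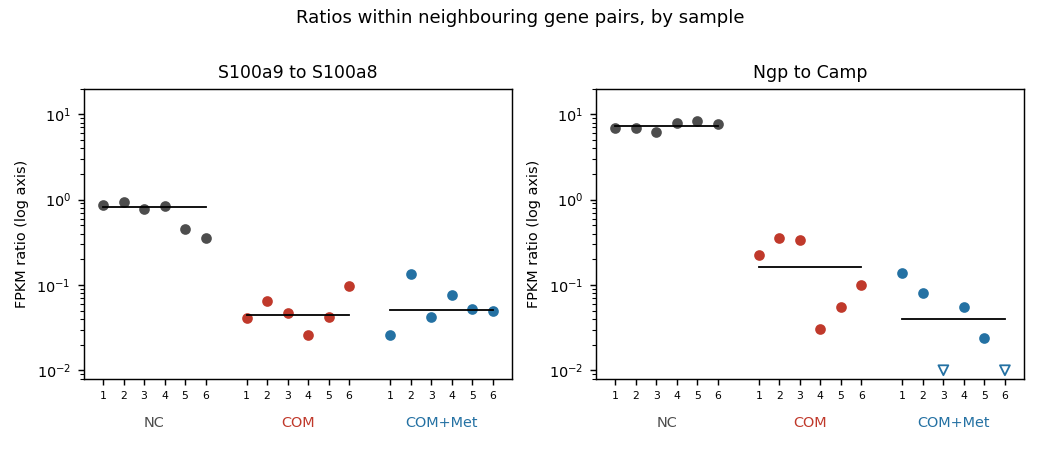
FPKM ratio of S100a9 to S100a8 (left) and of Ngp to Camp (right) in each sample, on a log axis, with group medians as lines. Open triangles mark the 2 COM+Met samples in which Ngp was listed at 0, and all NC samples lie above all COM and COM+Met samples in both panels.

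Cebpe, the factor that drives secondary granule genes, was near its NC level in most COM samples. It measured 4.15 to 5.57 FPKM in NC (median 4.49). In COM it was 3.24, 4.95, 4.09, 5.02 and 3.94 FPKM in COM-1 to COM-5 and 0.454 in COM-6. In COM+Met it was 1.21 to 2.81 FPKM (median 1.64), below every NC sample. The log2 difference was -0.43 (SE 0.29) for COM against NC, -0.12 when COM-6 was left out, -0.60 (SE 0.30) for COM+Met against COM and -1.02 (SE 0.12) for COM+Met against NC. Ngp and S100a9 were low in COM-1 to COM-5, where Cebpe measured 3.24 to 5.02 FPKM. The part of Cebpe in the levels of these genes was not tested.

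Mpo, the chlorinating enzyme of primary granules, was near the floor throughout. It was listed at 0.227, 0.138, 0.263 and 0.143 FPKM in NC-1 to NC-4, at 0 in NC-5 and at 0.0969 in NC-6. It was listed at 0 in all 6 COM and all 6 COM+Met samples, so no fold was calculated and it was not fitted.

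Of the 5 genes fitted for COM against NC, the groups of 6 did not overlap for S100a9 and Ngp. Across all 10900 genes tested, 38.2% had groups that did not overlap, and nothing is read from the count of members because the choice of genes used this contrast. For COM+Met against COM, 4 of 6 genes were fitted and 0 had groups that did not overlap, against 11.2% of 10364 genes tested. For COM+Met against NC, 5 were fitted, and S100a8, S100a9, Ngp and Cebpe had groups that did not overlap, against 57.6% of 10786 genes. COM is used in the first 2 comparisons and NC in the first and last, so the comparisons are not independent. The median log2 difference of all genes tested was -0.27 for COM against NC and -0.261 for COM+Met against NC, and median-of-ratios size factors moved these medians to -0.00274 and 0.0111. Relative to the median of all genes, the difference between COM and NC was -0.86 for S100a8, -4.31 for S100a9, 1.03 for Camp, -3.43 for Ngp and -0.16 for Cebpe.

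The shape of a profile over the 18 samples was compared as the root mean square difference in log2(FPKM + 1) after each profile was centred on its mean. S100a9 differed from Ngp by 0.721 on this scale, less than from its partner S100a8 (1.59). Ngp differed from Camp by 2.12. Among 10751 genes, the 3 with a profile most alike to that of S100a9 were S100a4 (0.564), Kazald1 (0.565) and the leukotriene enzyme gene Alox5 (0.668). Those most alike to Ngp were BC100530 (0.379) and Gm5483 (0.392), both of the stefin family, and Alox5 (0.489). For S100a8 they were the riboflavin transporter gene Slc52a3 (0.389), Hsd11b1, which reactivates glucocorticoids (0.428), and Spn, which encodes the sialoglycoprotein CD43 (0.48). For Camp they were the zinc transporter gene Slc39a4 (0.281), Ddit4 (0.299) and the M-CSF receptor gene Csf1r (0.322). For Cebpe they were Pafah1b3 (0.277), Pdlim7 (0.29) and the cyclin gene Ccnd3 (0.293). The profile of Mpo was almost flat at 0, and the genes nearest to it, Pafah1b1 (0.068), Celf1 (0.0709) and Skap2 (0.0742), were ones that hardly varied. A likeness over these samples reflects the groups and the libraries that stood apart, and no test was attached to it.

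Other genes of neutrophil granules and cytosol were tested with limma over all genes, and a gene was called where its adjusted p was under 0.05 and its change 2-fold or more. Among the 37 such genes in 4 lists, 28 were tested for COM against NC, of which 7 rose, 12 fell and 9 were not called, with a median difference of -0.74. Over all genes, 17.7% were called, 5.99% higher and 11.7% lower. A gene under 1 FPKM in COM was tested only where its level in NC was higher, so some falls were set by the filter. Of the primary granule list, 3 of 9 genes were tested and 1 fell (median -0.77). Serpinb1a, an inhibitor of neutrophil serine proteases, fell from 20.8 ± 17.1 to 1.25 ± 0.461 FPKM (SD, n = 6; log2 difference -2.96, SE 0.40, adjusted p = 6.66e-05 from limma). Elane, which encodes neutrophil elastase, was at 0.616, 0.517, 1.07, 0.558, 0.117 and 0 FPKM in NC and was listed at 0 in all COM and COM+Met samples, the same floor as Mpo.

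Of the secondary granule list, 11 of 12 genes were tested, of which 3 rose, 5 fell and 3 were not called (median -0.85). The call of Chil1, 1 of the 3 that rose, held in 17 of 25 alternatives and was lost without NC-5 and NC-6 (0.57). Lcn2, which encodes the siderophore-binding protein lipocalin 2, rose from 9.03 to 39.1 FPKM in NC to 640 to 1670 FPKM in COM (log2 difference 5.57, SE 0.39, adjusted p = 2.89e-07 from limma). In contrast to S100a8, Lcn2 was highest in COM-4 to COM-6, at 1670, 1580 and 1530 FPKM, against 640, 653 and 721 in COM-1 to COM-3. Hp, the gene of the haemoglobin-binding protein haptoglobin, rose from 136 ± 89.3 to 653 ± 162 FPKM (2.62, SE 0.51, adjusted p = 0.00102). Chil3, which encodes the chitinase-like protein Ym1, fell from 6700 ± 8900 to 360 ± 234 FPKM (-3.14, SE 0.89, adjusted p = 0.00994). Its NC samples ran from 836 to 18200 FPKM, and without COM-4, COM-5 and COM-6 its call was lost (-2.15, adjusted p = 0.139). It was also lost with sample weights (-1.06, adjusted p = 0.0519), and without NC-5 and NC-6 as well as these 3 the difference was -0.73 (adjusted p = 4.6e-05). Ltf, the gene of the iron-binding lactoferrin, fell from 2.18 to 3.93 FPKM in NC to 0 to 0.359 FPKM in COM (-1.67, SE 0.13, adjusted p = 7.1e-07). Its call was lost with a pseudocount of 5, which lowers the change of such low genes. Ltf was under 1 FPKM in COM and entered the test through NC alone. It could only be called lower, so nothing is read from its place in the count of 5. Lyz2, the macrophage and neutrophil lysozyme gene, measured 11600 ± 1580 FPKM in NC and 9520 ± 1220 in COM and was not called (adjusted p = 0.135), and its near-identical copy Lyz1 makes the split of reads between them uncertain.

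The tertiary granule and secretory vesicle list had no gene that fell in the main fit. Of 8 tested, 4 rose and 4 were not called, with a median of 1.25. Of the 4 not called, Fpr1 was called higher in 7 of 25 alternatives and Mmp8 lower in 3. For Mmp8 these were without NC-5 and NC-6 (-1.43, adjusted p = 0.000878 from limma), with sample weights (-1, adjusted p = 0.00173) and without all 5 libraries that stood apart (-1.08, adjusted p = 6.11e-07). Fpr2, a formyl peptide receptor gene, rose from 166 ± 88.4 to 549 ± 34.9 FPKM (1.94, SE 0.35, adjusted p = 0.000556), and Slc11a1, the gene of a phagosomal metal transporter, from 72.3 ± 13.4 to 229 ± 49.3 FPKM (1.64, SE 0.18, adjusted p = 1.38e-05). Mmp9, which encodes gelatinase B, rose from 5.14 ± 3.5 to 32.6 ± 28.8 FPKM (2.06, SE 0.72, adjusted p = 0.0288). It was at 61.1, 56.3 and 59.2 FPKM in COM-1 to COM-3 and at 7.01, 6.22 and 5.80 in COM-4 to COM-6, the same 3 libraries in which S100a8 was low. Its call was lost without any of NC-5, NC-6, COM-1, COM-2 or COM-3 (adjusted p = 0.06 to 0.0646). In the list of stefins and annexin, cytosolic proteins of neutrophils, 6 of 6 genes tested fell (median -2.37). BC100530 fell from 20.5 ± 11.7 to 0.589 ± 0.566 FPKM (-3.61, SE 0.38, adjusted p = 9.43e-06), Stfa2 from 9.45 ± 6.18 to 0.367 ± 0.322 FPKM (-2.68, SE 0.41, adjusted p = 0.000185) and Stfa1 from 6.17 ± 3.38 to 0.0872 ± 0.0889 FPKM (-2.55, SE 0.31, adjusted p = 3.13e-05). The stefin genes are near-identical copies, so their separate levels are uncertain. BC100530, Stfa2 and Stfa1 were under 1 FPKM in COM and entered the test through NC alone. They could only be called lower, so nothing is read from the count of 6.

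**Figure D3:**
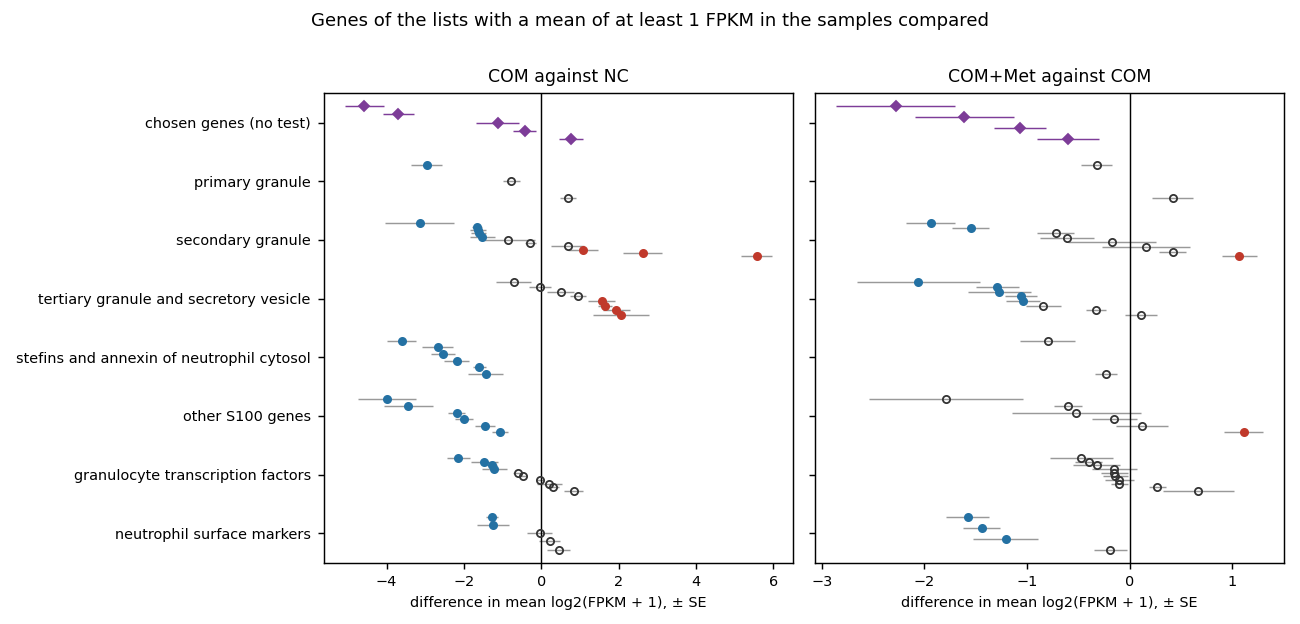
Difference in mean log2(FPKM + 1) with its SE for each fitted gene among the chosen genes and 7 lists, for COM against NC (left) and COM+Met against COM (right), each panel with its own horizontal scale. Filled red and blue circles are genes called higher and lower, open circles were not called, and purple diamonds are the chosen genes, which carry no test. The stefin list and the other S100 genes lie wholly to the left for COM against NC, while the tertiary granule list lies mostly to the right.

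The other S100 genes, of the same calcium-binding family as S100a8 and S100a9, were lower in COM as well. Of 13, 6 were tested and 6 fell (median -2.09). The calls of S100a11 and S100a13 held in 20 and 22 of 25 alternatives. S100a11 was under the 2-fold limit with size factors (-0.75), and both were without COM-4, COM-5 and COM-6 (-0.82 and -0.93). S100a4 fell from 698 ± 92.3 to 83.9 ± 80.1 FPKM (-4.0, SE 0.75, adjusted p = 0.000731), S100a6 from 385 ± 26.9 to 52.5 ± 38.3 FPKM (-3.44, SE 0.63, adjusted p = 0.000658) and S100a10 from 293 ± 29.3 to 67.2 ± 23.5 FPKM (-2.19, SE 0.23, adjusted p = 7.36e-06). S100a8 in COM-1 to COM-3, at 276 to 301 FPKM, was thus at the NC level where S100a4 did not exceed 168 FPKM in any COM sample. Among 8 genes for receptors and co-receptors of S100A8/S100A9, 7 were tested, of which 1 rose, 1 fell and 5 were not called (median -0.11). Cd14, the co-receptor of Toll-like receptor 4, rose from 64.7 ± 38.8 to 401 ± 95.8 FPKM (2.86, SE 0.43, adjusted p = 0.000141). Cd36, a scavenger receptor gene, fell from 171 ± 66.1 to 74.8 ± 33.9 FPKM (-1.24, SE 0.32, adjusted p = 0.00646), a call lost with size factors (-0.93), without NC-5 and NC-6 (-0.91), without COM-4, COM-5 and COM-6 (-0.62), with sample weights (-0.43) and without all 5 of these libraries (-0.29).

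Of the granulocyte transcription factors, 10 of 13 measured were tested, and 0 rose, 4 fell and 6 were not called (median -0.54). The call of Cebpd, 1 of the 4, held in 18 of 25 alternatives. It was lost, for example, with size factors (-0.96), with quantile normalisation (-0.95) and without COM-6 (-0.96). Cebpa, which starts the myeloid programme upstream of Cebpe, fell from 39.9 ± 4.36 to 15.6 ± 6.35 FPKM (-1.47, SE 0.35, adjusted p = 0.00345). It was 16.3 to 20.3 FPKM in COM-1 to COM-5 and 2.92 in COM-6, the library in which Cebpe was also lowest. Klf4, a factor of monocyte differentiation, fell from 23.3 ± 13.3 to 3.88 ± 0.644 FPKM (-2.15, SE 0.30, adjusted p = 8.18e-05), and Cbfb, the partner of Runx1, from 58.6 ± 4.75 to 24 ± 5.37 FPKM (-1.28, SE 0.14, adjusted p = 1.09e-05), a change under 2-fold with size factors (-0.98) and without COM-4, COM-5 and COM-6 (-0.99). Irf8, a factor of monocyte fate, was called higher without COM-6 (1.05, adjusted p = 0.000522), which makes 1 of the 6 a gene that rose. Gfi1, a repressor needed for neutrophils to mature, averaged 0.165 FPKM in NC, 0.435 in COM and 0.857 in COM+Met and was too low to be tested.

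**Figure D4:**
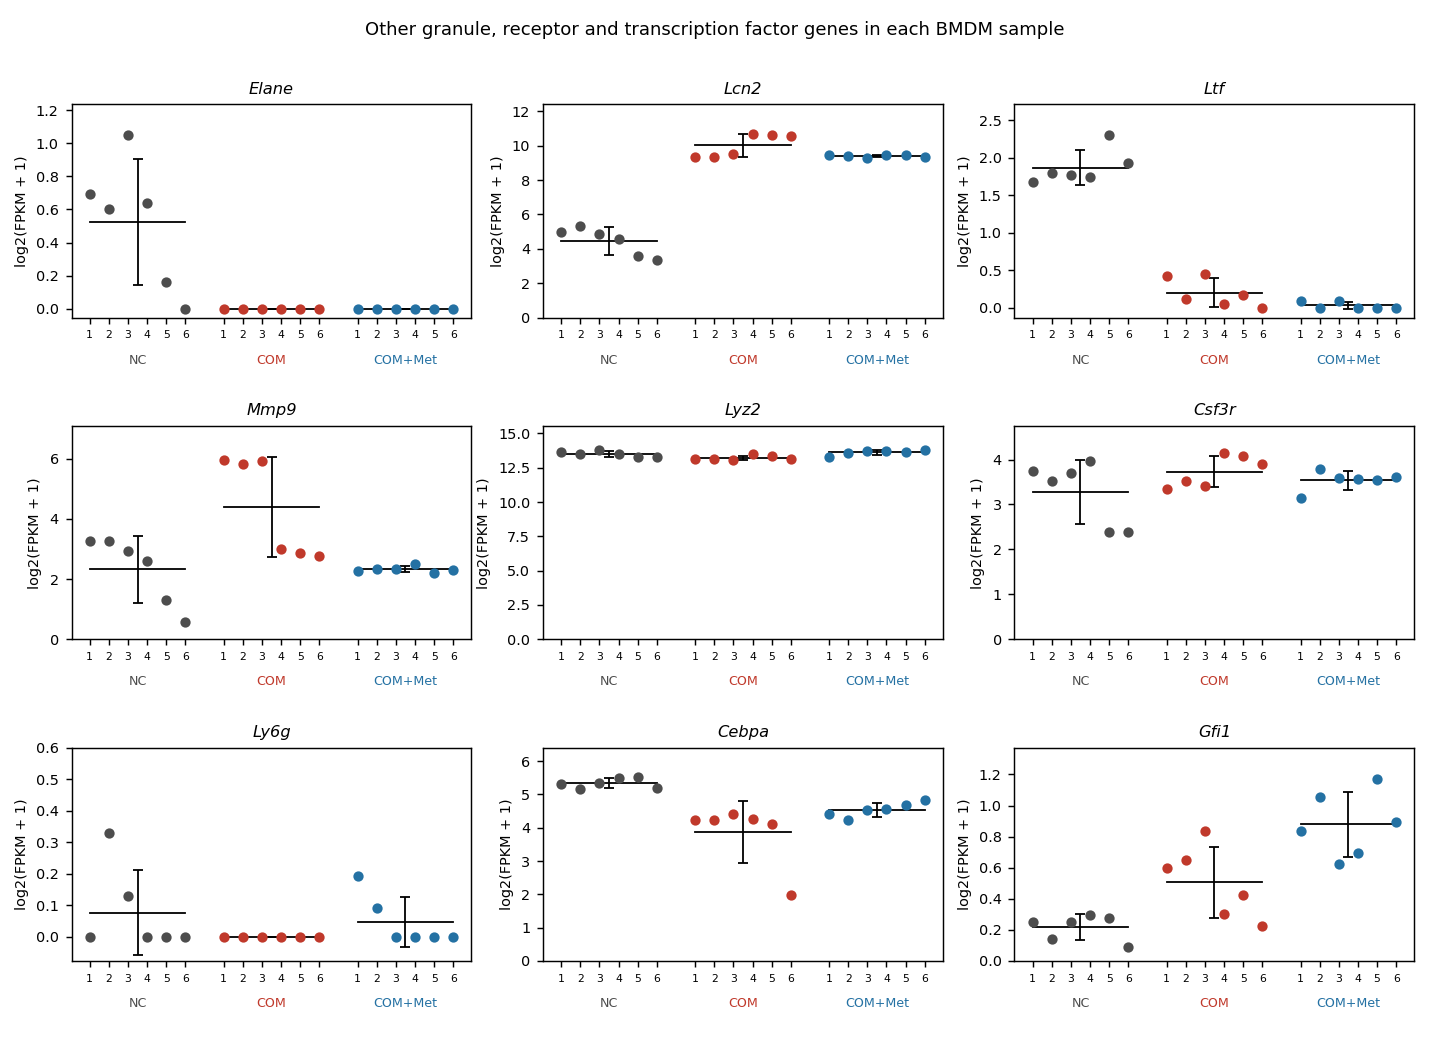
Level of 9 further granule, receptor and transcription factor genes as log2(FPKM + 1) in each of the 18 samples, drawn as in the plot of the chosen genes, with group means as lines and SD as bars (n = 6). Lcn2 is higher in every COM and COM+Met sample than in NC, Ltf is lower, Mmp9 is high in COM-1 to COM-3 only, and Elane and Ly6g lie at or near 0.

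With Met, S100a8, S100a9, Camp and Cebpe had lower means than in COM, as given above, and 1 other granule gene rose, 7 fell and 12 were not called of 20 tested (median -0.66). Over all 10364 genes tested, 2.22% were called, 0.608% higher and 1.61% lower, and the median difference was 0.00333. The secondary granule list had 1 gene that rose and 2 that fell of 8 tested. Chil1, a chitinase-like gene, fell from 8.15 ± 3.67 to 1.24 ± 0.355 FPKM (-1.94, SE 0.24, adjusted p = 0.00038) and Hp from 653 ± 162 to 215 ± 16.2 FPKM (-1.55, SE 0.18, adjusted p = 0.000283). Ptx3, which encodes the soluble pattern receptor pentraxin 3, rose from 5.53 ± 1.19 to 12.8 ± 3.25 FPKM (1.07, SE 0.17, adjusted p = 0.00159), just over the 2-fold limit, and was under it without COM+Met-5 (0.98) and with a pseudocount of 5 (0.75). In the fit of all 18 samples its adjusted p was 0.0615, so that 0 granule genes rose and 7 fell there. Lcn2 measured 1130 ± 509 FPKM in COM and 678 ± 34.9 in COM+Met and was not called (-0.61, SE 0.26, adjusted p = 0.143).

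The tertiary granule list had 5 genes that fell of 8 tested (median -1.05). Of the 5, the calls of Fpr1 and Adam8 held in 17 and 20 of 23 alternatives. Without COM-4 both were just under the 2-fold limit (-0.99 and -0.98), and Fpr1 was at -0.75 without COM-4, COM-5 and COM-6. Mmp8, the neutrophil collagenase gene, fell from 175 ± 54.6 to 68.7 ± 12.9 FPKM (-1.29, SE 0.21, adjusted p = 0.00228) and Mmp25, a membrane-bound metalloproteinase gene, from 13.6 ± 7.28 to 4.52 ± 1.31 FPKM (-1.27, SE 0.31, adjusted p = 0.0172). Mmp9 fell to 4.05 ± 0.345 FPKM (-2.06, SE 0.60, adjusted p = 0.0399), but its 3 lowest COM values of 5.80 to 7.01 were close to the COM+Met range of 3.62 to 4.66, and its call was lost without any of COM-1, COM-2, COM-3 or any single COM+Met sample (adjusted p = 0.0713 to 0.0848) and with the replicate block (adjusted p = 0.0614). Of the primary granule and stefin lists, 2 genes each were tested and limma called 0, with 0 and 1 at an unadjusted p under 0.05. Serpinb1a, BC100530 and Stfa2, which fell in COM, were then too low to be tested. Of the other S100 genes, 1 rose, 0 fell and 5 were not called of 6 tested. S100a1 rose from 54.4 ± 15.4 to 114 ± 7.38 FPKM (1.11, SE 0.19, adjusted p = 0.00298), under the 2-fold limit without COM-6 (0.92), while S100a4 measured 83.9 ± 80.1 and 11.6 ± 1.19 FPKM and was not called (-1.79, adjusted p = 0.135). Without COM-6, S100a4 (-2.24, adjusted p = 0.0332) and S100a6 (-1.15, adjusted p = 0.0245) were both called lower, as they were without COM-4, COM-5 and COM-6 (-3.65 and -1.82). Of the S100A8/S100A9 receptor genes, Cd36 fell from 74.8 ± 33.9 to 25.1 ± 2.9 FPKM (-1.41, SE 0.27, adjusted p = 0.00507) and 6 others were not called. Of 10 granulocyte transcription factors tested, limma called 0, and 2 had an unadjusted p under 0.05. Without COM-4, COM-5 and COM-6, Cebpd, which encodes C/EBP delta, was called lower (-1.19, adjusted p = 4.73e-07).

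Against NC, COM+Met had 4 granule genes higher and 13 lower of 28 tested (median -0.86), where 19.3% of all genes were called, 5.66% higher and 13.6% lower. Lcn2 was higher at 678 ± 34.9 FPKM (4.96, SE 0.30, adjusted p = 9.01e-09 from limma). Ltf was lower at 0 to 0.0642 FPKM (-1.84, SE 0.10, adjusted p = 4.25e-09), but it entered this test through NC alone and could only be called lower. With size factors, the percentage of calls in the higher direction went from 33.9% to 51.4% for COM against NC and from 29.4% to 46.5% for COM+Met against NC. The granule genes called were then 8 higher and 12 lower for COM against NC, close to the 7 and 12 on the deposited scale.

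Markers of neutrophils were measured beside these results. The defining surface gene Ly6g was at 0 in 4 of 6 NC, 6 of 6 COM and 4 of 6 COM+Met samples and did not exceed 0.257 FPKM, so the marker that defines mature neutrophils was at or near 0 throughout. Csf3r, the gene of the G-CSF receptor, measured 9.68 ± 4.46 FPKM in NC, 12.6 ± 3.27 in COM and 10.7 ± 1.61 in COM+Met and was called in 0 comparisons. The summed FPKM of the 10 neutrophil surface genes was 106 to 140 in NC, 150 to 169 in COM-1 to COM-3, 64.9 to 86.1 in COM-4 to COM-6 and 46 to 50.1 in COM+Met. COM-4 to COM-6 were the lower COM libraries here as for S100a8, although COM-1 to COM-3 exceeded NC. Most of the sum in COM came from Mcemp1, since Csf3r, Trem1, Il1r2 and Cxcr2 averaged 12.6, 11.9, 6.73 and 0.361 FPKM there. In COM against NC, 2 of 5 tested fell and 0 rose. Of the 2, Cxcr2 was under 1 FPKM in COM, entered the test through NC alone and could only be called lower. Cxcr2, a chemokine receptor gene, fell from 2.26 ± 0.404 to 0.361 ± 0.292 FPKM (-1.28, SE 0.15, adjusted p = 2.11e-05), under the 2-fold limit with a pseudocount of 5 (-0.44), with sample weights (-0.99) and without all 5 libraries that stood apart (-0.96). Il1r2, a decoy receptor gene, fell from 20.6 ± 11.9 to 6.73 ± 1.95 FPKM (-1.25, SE 0.41, adjusted p = 0.0227), a call lost without NC-2 (adjusted p = 0.0508) or NC-4 (adjusted p = 0.0536) and with size factors (adjusted p = 0.0827). In COM+Met against COM, 3 of 4 fell. Of these, the call of Mcemp1 was lost without any of COM-1, COM-2, COM-3 or any single COM+Met sample (adjusted p = 0.0501 to 0.0596 from limma). It was also lost with the replicate block (adjusted p = 0.0508). Trem1, an amplifier of myeloid inflammation, fell from 11.9 ± 4.8 to 3.06 ± 0.394 FPKM (-1.58, SE 0.21, adjusted p = 0.000562). The part of neutrophil-lineage cells in these levels was not tested.

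Markers of the other cells the wells could hold moved too. The macrophage markers summed to 1250 to 1360 FPKM in NC, 1660 to 2450 in COM and 2360 to 2480 in COM+Met, and Adgre1, which encodes F4/80, rose from 112 ± 9.98 to 577 ± 63.2 FPKM (2.36, SE 0.11, adjusted p = 1.39e-08). The list did not move as its sum did. Of 12 tested for COM against NC, 4 rose, 1 fell and 7 were not called, with a median of -0.19. Fcgr1, a high-affinity Fc receptor gene, rose from 8.05 ± 0.829 to 83.7 ± 47.1 FPKM (3.05, SE 0.29, adjusted p = 3.52e-06). Mrc1, the mannose receptor gene, fell from 79.9 ± 32.5 to 3.26 ± 1.93 FPKM (-4.29, SE 0.33, adjusted p = 6.08e-07). The complement genes C1qa (-1.12), C1qb (-0.88) and C1qc (-0.82) were not called, and without NC-6 they were called lower (-1.43, -1.31 and -1.15), C1qa and C1qc also without NC-5 (-1.41 and -1.09). For COM+Met against COM, 3 of 12 rose, 0 fell and 9 were not called, and the 3 were the C1q genes. Of the 14 tubular epithelial markers, 4 were at 0 in all NC samples, and their summed level was 10.9 to 18.2 FPKM in NC, 0.468 to 1.37 in COM and 0.0575 to 0.332 in COM+Met. Cdh1, the E-cadherin gene, made up most of it at 12.9 ± 3.14 FPKM in NC, and Umod, Aqp2, Krt18 and Havcr1 were at 0 in NC and COM. The 6 monocyte and progenitor markers summed to 27.3 to 252 FPKM in NC, with NC-5 and NC-6 lowest at 27.3 and 33.4, 1770 to 1820 in COM-1 to COM-3, 750 to 1000 in COM-4 to COM-6 and 277 to 332 in COM+Met. Ly6c2, which marks inflammatory monocytes, rose from 152 ± 104 to 1320 ± 515 FPKM in COM (3.55, SE 0.62, adjusted p = 0.000434) and fell to 295 ± 25.3 in COM+Met (-2.06, SE 0.23, adjusted p = 0.00021), and it made up most of this sum. Of the 4 tested for COM against NC, 2 rose, 1 fell and 1 was not called (median 0.91). Ccr2, a chemokine receptor gene that also marks inflammatory monocytes, fell from 8.24 ± 5.12 to 0.187 ± 0.0643 FPKM (-2.79, SE 0.28, adjusted p = 6.17e-06). Ccr2 was under 1 FPKM in COM and entered the test through NC alone, so it could only be called lower. Of the 3 tested for COM+Met against COM, 1 fell and 2 were not called. The 10 cell division genes all fell in COM against NC, their sum going from 165 to 377 FPKM to 14.7 to 32.3. Only 4 of them averaged 1 FPKM or more over COM and COM+Met. A gene under 1 FPKM in COM could only be called lower, so nothing is read from the count of 10. The part of these cells, or of cell division, in the levels of the granule genes was not tested.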

How the data were processed

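Expression was measured by RNA-seq (TruSeq libraries) in 18 BMDM samples, with 6 to a group, grouped by their labels. For 25926 genes the authors deposited FPKM (fragments scaled to gene length and sample total), with replicates kept apart, and 0 sample columns were left out. The submitters' processing notes list the builds mm8 and mm9 and the aligner Bowtie 0.12.2, while no quantifier or annotation is given in the sources used here. Genes were placed by identifier in GENCODE M21 (GRCm38), so positions are not of the submitters' build. Whole reads could not be recovered, since the most common ratio between samples was shared by 0.515% to 1.03% of genes below 0.5 FPKM, and depth is unknown. FPKM falls for a gene when abundant genes rise.

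Values were taken as log2(FPKM + 1), which understates changes of low genes. A gene entered a comparison when its 12 values averaged 1 FPKM or more. A gene under 1 FPKM in 1 of the groups thus entered through the other alone, and could be called in 1 direction only. Tests used limma 3.58.1 (lmFit, eBayes with trend; R 4.3.3), p-values were adjusted by Benjamini-Hochberg over every gene tested, and genes were called at an adjusted p below 0.05 and at least 2-fold. The procedure was tested on simulated data. The members and gene lists were chosen with earlier results of these data known. Genes named are the members, up to 3 called genes of each list with the largest differences per comparison, Elane, Ltf, Lcn2, Ly6g, Mmp9, Csf3r, Gfi1, Cebpa and Lyz2, and the 3 genes most alike to each member. Others were named after their values were seen (Adgre1, Umod, Aqp2, Krt18, Havcr1, Irf8, Cebpd, Fpr1, Adam8, S100a11, S100a13 and the C1q genes). Chi3l1 is listed as Chil1, and Ddit3, with 2 rows, was left out. Alternatives were pseudocounts of 0.1 and 5, filters of 0 and 5 FPKM, rescaling to equal sums, quantile normalisation, size factors, a block for the replicate number, all 18 samples fitted together, sample weights and each sample left out. The removal of NC-5 and NC-6, of COM-4 to COM-6, or of all 5 was chosen after seeing the data. COM-1 to COM-3 were not removed as a set, so COM-4 to COM-6 alone were not compared with COM+Met. Plots were made with matplotlib 3.10.9 in Python 3.11.15.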

Additional observations from a re-analysis of the deposited data

Results flagged for a closer look

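For the 6 members and 9 other named genes, 40 sets of 6 samples with any spread were checked for a sample far from the others (Dixon's ratio of the gap to the range, at its critical value for 6 samples), a check that marks about 5% of sets by chance. It marked 6. In COM-6, Camp was 2.57 FPKM, with the other COM samples at 8.01 to 10.2, and Cebpa was 2.92 FPKM, with the others at 16.3 to 20.3. In COM+Met-1, S100a8 was 39.6 FPKM, with the others at 15.3 to 23.0, and Ngp was 0.552 FPKM, with the others at 0 to 0.194. In NC-5, Ltf was 3.93 FPKM, with the others at 2.18 to 2.81. In NC-2, Ly6g was 0.257 FPKM, with the others at 0 to 0.0931. COM-6 was also the COM library least correlated with the rest of its group. The share of these marks that is due to the library as a whole was not tested.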

How the results depend on the processing

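Most of the limits concern COM, where COM-4 to COM-6 differed from COM-1 to COM-3. The difference of S100a8 between COM and NC (-1.13) turned positive with sample weights (0.19), without COM-4, COM-5 and COM-6 (0.22) and without these and NC-5 and NC-6 (0.36). That of Camp between COM+Met and NC (-0.30) was 0.03 after quantile normalisation. The differences of S100a9 and Ngp stayed negative in all alternatives run, from -4.87 to -3.42 and from -4.68 to -2.38 for COM against NC. Of 409 values of members under alternatives, 383 moved by less than the spread between replicates or not at all and 22 by more. The count of other granule genes called for COM against NC (19, with 7 higher and 12 lower) was 12 with a filter of 5 FPKM. Of these 12, 7 were higher and 5 lower, so the balance of directions changed. The count was 13 with a pseudocount of 5, with 6 higher and 7 lower, and 17 to 20 with each sample left out. For COM+Met against COM (8) it was 4 with a pseudocount of 5 and 6 to 7 with each sample left out, and for COM+Met against NC (17) it was 10 with a filter of 5 FPKM and 17 to 19 with each sample left out. The filter lowers the count because fewer genes are tested. Among all genes, COM against NC (1926 called) gave 980 with a pseudocount of 5 and 1727 to 2073 with each sample left out. COM+Met against COM (230) gave 370 and 90 with pseudocounts of 0.1 and 5, 719 with sample weights, 771 without COM-4, COM-5 and COM-6 and 182 to 300 with each sample left out, and COM+Met against NC (2078) gave 1117 with a pseudocount of 5 and 2015 to 2136. Where no value shows it, the cause was not tested.

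Samples with the same replicate number did not deviate together (correlations of -0.22 to 0.06, with 0 of 18 pairs over 0.1), so no pairing by number was seen. The libraries that stood apart weigh on these deviations and could hide a pairing, so the check does not exclude one. In the fit with a replicate block, 1920, 202 and 2080 genes were called in the 3 comparisons, and 19, 7 and 17 of the other granule genes.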

Other observations

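Granule genes of other leukocytes were low in COM as well. Of 9 genes of eosinophil, basophil and mast cell granules, 5 were tested for COM against NC and 5 fell. Cpa3, the mast cell carboxypeptidase gene, went from 10.6 ± 4.34 to 0.302 ± 0.324 FPKM (SD, n = 6; -3.10, SE 0.24, adjusted p = 7.47e-07 from limma), Ear2, an eosinophil-associated ribonuclease gene, from 178 to 707 FPKM in NC to 25.5 to 63.5 in COM (-2.90, SE 0.39, adjusted p = 7.04e-05) and Prg2, the eosinophil major basic protein gene, from 5.84 ± 3.58 to 0.185 ± 0.178 FPKM (-2.29, SE 0.39, adjusted p = 0.000371). Ear2 has near-identical copies, so its level is uncertain. Cpa3 and Prg2 were under 1 FPKM in COM and entered the test through NC alone. They could only be called lower, so nothing is read from the count of 5. For COM+Met against COM, the 1 gene tested, Ear2, was under the 2-fold limit and was not called (-0.87, SE 0.22, adjusted p = 0.0194 from limma).

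The subunits of the NADPH oxidase, which makes superoxide in neutrophils and macrophages, were also measured. Of 8 tested for COM against NC, 2 rose, 0 fell and 6 were not called. Cybb, the catalytic subunit gene, rose from 486 ± 140 to 1200 ± 175 FPKM (1.34, SE 0.20, adjusted p = 0.000152) and Rac2, which activates the enzyme, from 93.4 ± 6.99 to 194 ± 37.8 FPKM (1.02, SE 0.15, adjusted p = 0.000113). Rac2 lay at the 2-fold limit, and its difference was 0.98 or 0.99 without any of NC-5, COM-2, COM-3, COM-4 or COM-5, or without both NC-5 and NC-6. For COM+Met against COM, limma called 0 of 8, and 2 had an unadjusted p under 0.05.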
